A study of Arabidopsis thaliana with 6 samples.

Results

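XTH16 (AT3G23730), XTH18 (AT4G30280) and XTH19 (AT4G30290) encode xyloglucan endotransglucosylase/hydrolases of Arabidopsis thaliana. They were taken as the probe sets annotated to these 3 genes alone, which gave 1 probe set for each gene, numbered 257203, 253628 and 253608, among 22746 probe sets that are not array controls. Whole seedlings of the Col-0 ecotype were profiled on 6 Affymetrix ATH1 arrays, each with RNA from about 40 pooled plants. The growth room was kept at 22 °C and 100% humidity, with light for 16 h daily and a medium named only S. The groups were cdpk6-yfp line 4 (2 arrays) and cdpk6-yfp line 1 (1 array), which carry a cdpk6-yfp transgene, and the control line aeq+ (2 arrays), which carries an aequorin transgene. For 1 further array the name in the title and the source name stand for the control, whereas its strain and modification labels and the code A3 in its title go with line 1, so it was placed in no group. By its title the series addresses the developmental role of CDPK6, one of the plant kinases activated by calcium. The promoter of the transgene, the age of the seedlings, and whether the cdpk6-yfp lines also carry aequorin are not given in the sources used here.

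Xyloglucan is the main hemicellulose of growing walls in plants such as Arabidopsis and coats and links cellulose microfibrils. XTH enzymes cut a xyloglucan chain and join the new end to another chain, or in some members to water, and are known for their part in wall extension and in the building of new wall. XTH18, XTH19 and XTH20 belong to a set of close relatives described in Arabidopsis roots, and XTH19 was described as responsive to auxin there. XTH18 and XTH19 lie next to each other in the TAIR10.1 gene table, with XTH24 (AT4G30270) on the other side of XTH18. XTH24 was not analysed here, as no probe set used here carried its name.

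The 3 genes gave 3 different patterns over the arrays. XTH19 was 3.39-fold higher in line 4 than in the control and stood at the control level on the line 1 array. XTH18 was 1.295-fold higher in line 4, but at 0.324 of the control mean on the line 1 array. XTH16 did not pass the test in line 4 and was 1.76-fold the control mean on the line 1 array.

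**Figure D1:**
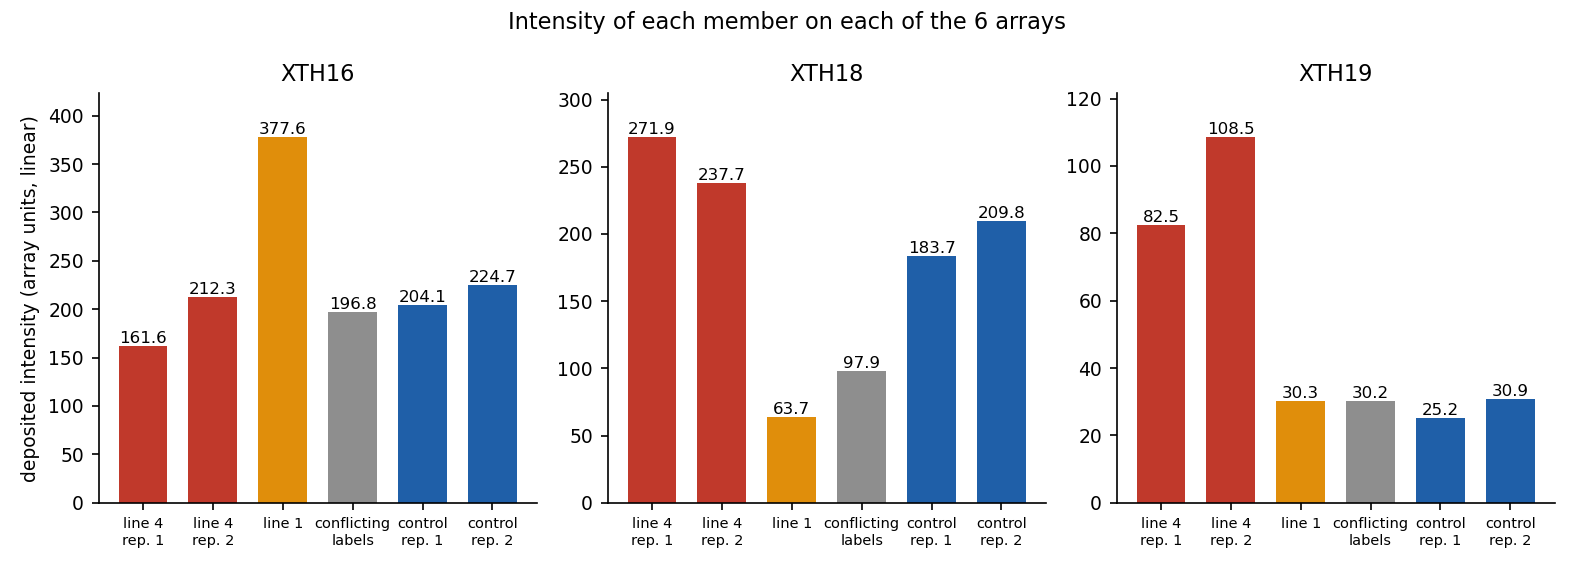
Deposited intensity (linear array units, vertical axes from 0) of XTH16, XTH18 and XTH19 on each array, with line 4 in red, line 1 in orange, the array with conflicting labels in grey and the control in blue. XTH19 is highest on the line 4 arrays (82.5 and 108.5), XTH18 is lowest on the line 1 array (63.7), and XTH16 is highest on the line 1 array (377.6).

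XTH19 read 82.5 and 108.5 intensity units on the line 4 arrays, 30.3 on the line 1 array and 25.2 and 30.9 on the control arrays. The array with conflicting labels read 30.2. Both line 4 arrays thus stood above all others, while the line 1 array and the array with conflicting labels fell between the control arrays. Both line 4 arrays lay above both controls at 26.8% of the probe sets tested, and the share above all others was not computed. The means were 95.5 ± 18.4 units in line 4 and 28.05 ± 4.03 units in the control (SD, n = 2 each). On the log2 scale the difference of line 4 from the control was 1.76 ± 0.198 (SE), with a 95% interval of 1.32 to 2.21 and a limma adjusted p of 0.000502. The interval corresponds to 2.49- to 4.62-fold. XTH19 passed in all 12 alternatives of this comparison, with values from 1.33 to 1.96. All of these except the fit without the filter on dim signals kept a filter that XTH19 passed through its line 4 values, as given below. The limma adjusted p was at most 0.0308. The lowest, 5.33e-16, came with a replicate block that left 1 residual degree of freedom. It rests almost wholly on the spread that limma estimates over all probe sets, and does not measure how these few arrays vary.

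XTH19 was a dim probe set outside line 4. Its control mean of 28.05 units was below the lowest mean signal that the filter on dim signals kept (29.6 units), so it entered the tested set through its line 4 values. In the fit without that filter it also passed (limma adjusted p = 0.0107). With a pseudocount of 16 units added before the log, which shrinks the differences of dim probe sets, line 4 was above the control by 1.33. As background for these calls, 15.5% of all 13647 probe sets tested passed in line 4 against the control, 8.1% as higher and 7.37% as lower.

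XTH18 read 271.9 and 237.7 units on the line 4 arrays, 63.7 on the line 1 array and 183.7 and 209.8 on the control arrays. The array with conflicting labels read 97.9. The 3 groups did not overlap, with line 4 highest, the control next and line 1 lowest, and the array with conflicting labels lay between line 1 and the control. The means were 254.8 ± 24.2 units in line 4 and 196.75 ± 18.5 units in the control (SD, n = 2 each). Line 4 minus control was 0.37 ± 0.105 on the log2 scale (SE, n = 2 against 2), with a 95% interval of 0.14 to 0.61 and a limma adjusted p of 0.0427. A difference of at least this size, in either direction, was found at 20.7% of the probe sets tested, and both line 4 arrays lay above both controls at 26.8%.

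The call for XTH18 in line 4 held in 4 of 12 alternatives. It was lost without line 4 replicate 1 (limma adjusted p = 0.275), without line 4 replicate 2 (0.0525) and without control replicate 1 (0.155), and also under 5 settings that leave out no array, with limma adjusted p from 0.0834 to 0.473. The direction was upward in all 12, with values from 0.28 to 0.71. Among the 4 that held was the fit without the line 1 array. That array adds no estimate of spread, so this fit nearly repeats the reported one.

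On the single line 1 array XTH18 stood 1.62 below the control mean on the log2 scale. This difference has no replicate check, and it was the 143rd lowest among 13647 probe sets. A fall of at least 2-fold that lay below both control arrays occurred on this array at 2.95% of probe sets. On the array with conflicting labels XTH18 was at 0.499 of the control mean. Taking that array as line 1, as its strain label has it, gave a difference of -1.31 ± 0.218 for line 1 minus control (SE, n = 2 against 2) with a limma adjusted p of 0.0286, where 3.96% of all probe sets passed, 1.15% as higher and 2.81% as lower. Taking it as control gave -1.29 for the line 1 array.

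XTH16 read 161.6 and 212.3 units on the line 4 arrays, 377.6 on the line 1 array and 204.1 and 224.7 on the control arrays. The array with conflicting labels read 196.8. The line 4 arrays overlapped with the control arrays, and the line 1 array stood apart above all others. The means were 186.95 ± 35.9 units in line 4 and 214.4 ± 14.6 units in the control (SD, n = 2 each). Line 4 minus control was -0.21 ± 0.125 on the log2 scale, with a 95% interval of -0.49 to 0.07, or 0.712- to 1.05-fold, and a limma adjusted p of 0.289. The 2 line 4 arrays differed from each other by more than the 2 control arrays did. Without line 4 replicate 2 the difference was -0.41 (limma adjusted p = 0.0585), and without line 4 replicate 1 it was -0.01 (0.969).

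On the line 1 array XTH16 was 0.82 above the control mean on the log2 scale, a difference without replicate check. It was the 292nd highest difference on this array, and 5.55% of all probe sets lay at least 1.5-fold above the control mean and above both controls. The array with conflicting labels did not share this rise, at 0.919 of the control mean. With that array as line 1 the difference was 0.35 ± 0.304 and did not pass (limma adjusted p = 0.538), with a 95% interval of -0.38 to 1.08.

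**Figure D2:**
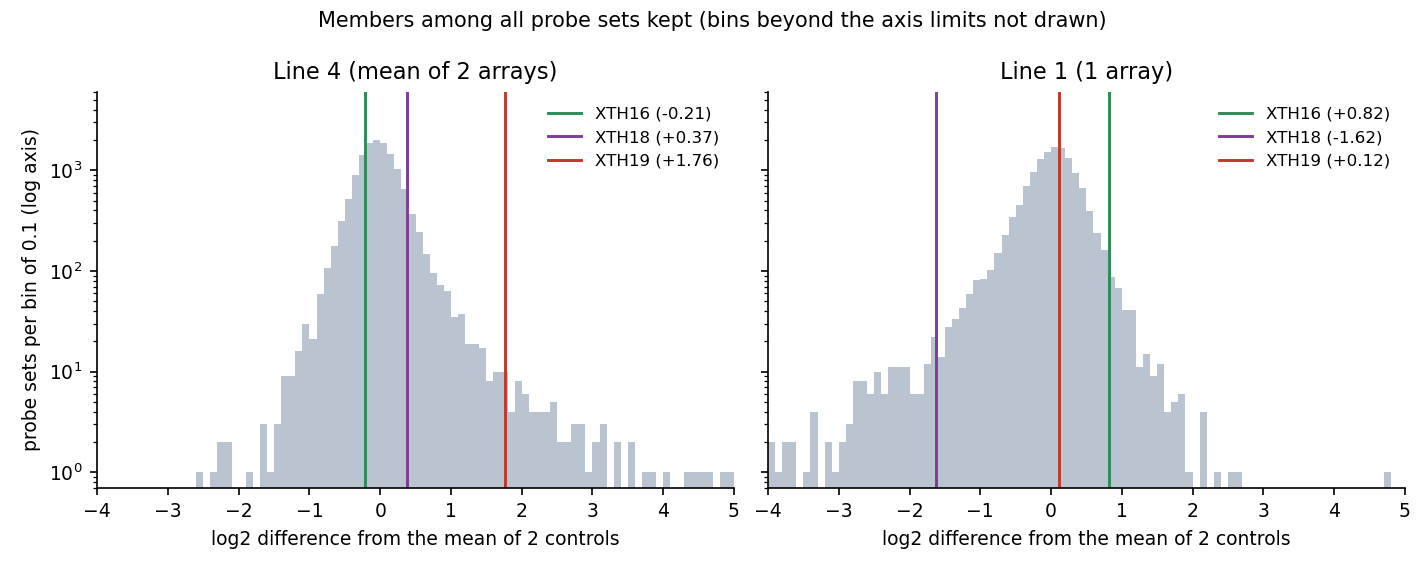
Number of probe sets in bins of 0.1 (vertical, log axis) against the log2 difference from the control mean, for line 4 on the left and the line 1 array on the right, with vertical lines at the 3 genes. In line 4 XTH19 (+1.76) lies far out on the upper side and XTH18 (+0.37) and XTH16 (-0.21) within the body, while on the line 1 array XTH18 (-1.62) lies on the lower tail, XTH16 (+0.82) on the upper shoulder and XTH19 (+0.12) near the centre.

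As both lines carry a cdpk6-yfp transgene by their labels, their 3 arrays were also compared as 1 group with the control. None of the 3 genes passed. XTH19 differed by 1.21 ± 0.534 (SE, n = 3 against 2, limma adjusted p = 0.404), XTH18 by -0.29 ± 0.621 (0.863) and XTH16 by 0.13 ± 0.345 (0.890). In this fit 0% of the 13647 probe sets passed in limma, and 1770 had an unadjusted p under 0.05. The line 1 array decided these values. Without it XTH18 turned to 0.37 (limma adjusted p = 0.0369) and XTH16 to -0.21, and XTH19 stood at 1.76 (0.000399), as only line 4 is then left.

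The difference between the lines could be tested with the array of conflicting labels taken as line 1, a comparison chosen after the values were seen. Line 4 exceeded these 2 arrays by 1.69 ± 0.218 for XTH18 and by 1.65 ± 0.204 for XTH19 (SE, n = 2 against 2, limma adjusted p = 0.00703 and 0.00614), where 7.89% of all probe sets passed, 5.26% as higher in line 4. The sizes were alike in both genes, but the 2 genes lay differently relative to the control. For XTH18 most of the gap came from low values on the 2 other arrays, and for XTH19 from high values in line 4. XTH16 differed by -0.56 ± 0.304 and did not pass (limma adjusted p = 0.321), with a 95% interval of -1.29 to 0.17. XTH18 shared its order, with both line 4 arrays above and the line 1 array below both controls, with 7.06% of probe sets, and with the array of conflicting labels below too, with 4.06%.

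Some technical measures moved with these values, and their part in them was not tested. The 3′ to 5′ signal ratio of actin, which rises as RNA degrades, was 3.19 and 3.48 on the line 4 arrays, where XTH19 was high, 4.17 on the line 1 array, 4.67 on the array with conflicting labels and 4.27 and 4.30 on the control arrays. The same ratio for GAPDH was 1.54 and 1.43 in line 4, 1.58 in line 1 and 1.79 and 1.71 in the control. It was 1.67 on the array with conflicting labels. Signal of 25S ribosomal RNA was 275.4 and 915.9 in line 4, 1073.1 in line 1, 2189.3 on the array with conflicting labels and 282.1 and 277.2 in the control. The 2 arrays with the most of it had the least XTH18. Line 4 replicate 2, at 915.9 for 25S, had 237.7 units of XTH18. The scanner background averaged 142.62 on control replicate 2, while the other arrays had 89.78 to 95.64. Without control replicate 2 the differences of line 4 from the control were 1.91 for XTH19, 0.47 for XTH18 and -0.14 for XTH16. Outlier cells of the scanned image numbered 672 on the line 1 array, where XTH18 was lowest and XTH16 highest. The other arrays had 258 to 449. Median intensity lay between 44.2 and 46.4 on all 6 arrays.

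**Figure D3:**
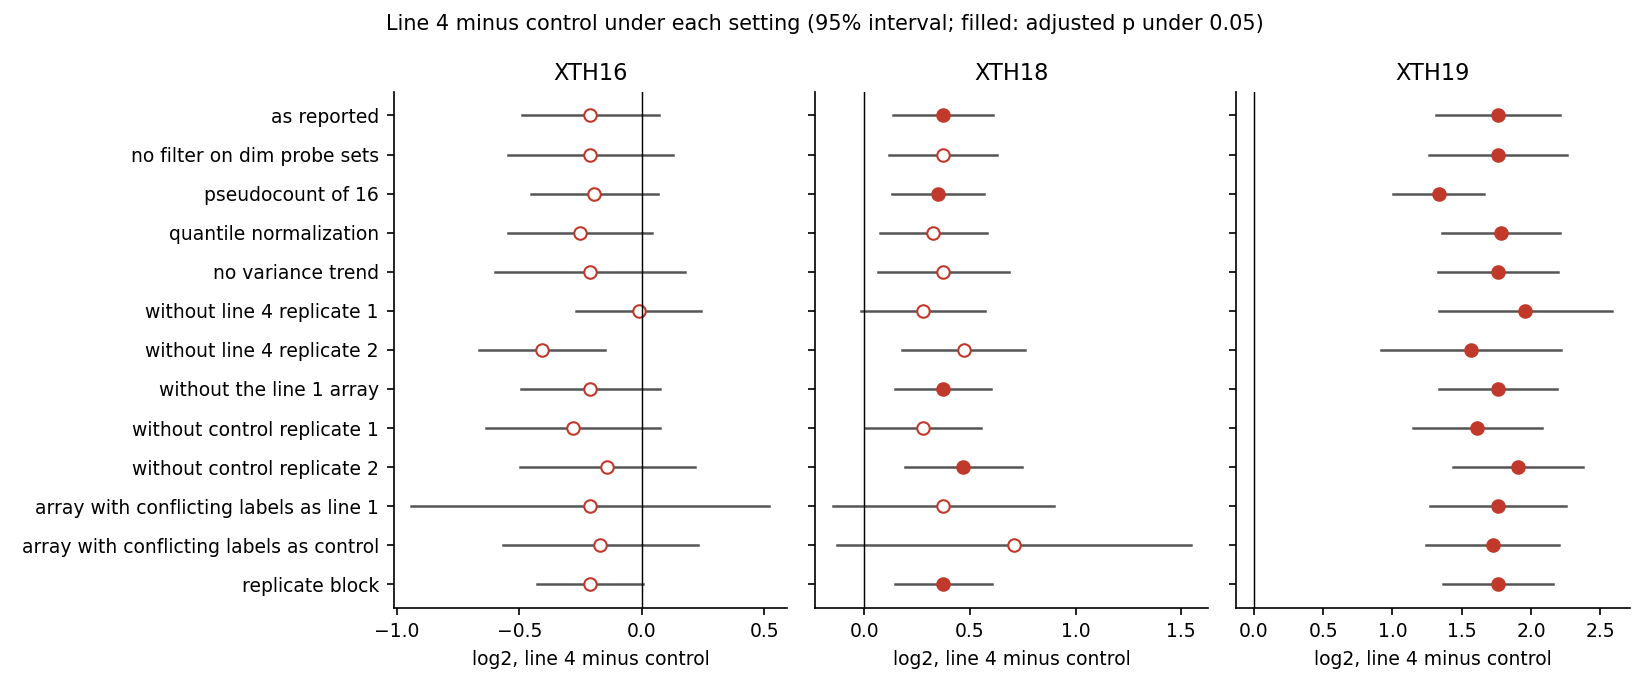
Line 4 minus control on the log2 scale (horizontal axes, which differ between panels) for XTH16, XTH18 and XTH19 under each processing setting or left-out array, with 95% intervals; filled circles have a limma adjusted p under 0.05. XTH19 is filled in every row, XTH18 in the reported fit and 4 others, and XTH16 in none.

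Since XTH18 and XTH19 are described in roots, the organ markers of the lists were read beside them. PYK10, which encodes an abundant root glucosidase, read 2320.4 and 2237.7 units in line 4, 2547.6 in line 1 and 2929.8 and 2597.6 in the control, a difference of line 4 of -0.28 that did not pass (limma adjusted p = 0.104). AT5G48940, a receptor kinase gene of the root list, was at 0.22 (0.565), and EXPA7 and EXPA18, expansin genes of root hairs, were at -0.30 (0.355) and -0.20 (0.505). RCA, for the activase of Rubisco, was at -0.21 (0.262). On the array with conflicting labels PYK10 read 2178.5 and RCA 3019.8. Of 12 root markers 2 had a named probe set, of 9 root hair markers 2 and of 9 leaf markers 1. The seed and flower markers had none and were not analysed here. The root marker PYK10 and the leaf marker RCA were thus both bright on every array of whole-seedling RNA. As these are single genes, the amount of root or leaf RNA was not measured. In such bulk RNA a change in the number of cells that express a gene and a change in its RNA per cell cannot be told apart.

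Of the 33 XTH genes of Arabidopsis, 10 had a probe set of their own by name, and 6 of these passed the filter on dim signals. In line 4 against the control 2 of the 6 rose, XTH19 and XTH18, and 1 fell, XTH32, where 8.1% of all probe sets tested rose and 7.37% fell. As XTH19 passed the filter through line 4, the count is a description only. The median of the 6 was -0.05, against -0.03 over all probe sets tested. XTH32, of the branch of the family that holds known or predicted xyloglucan hydrolases, read 150.7 and 166.2 units in line 4, 162.1 in line 1 and 201.6 and 191.9 in the control. The array with conflicting labels read 150.5, so that XTH32 was lower on all 4 other arrays than on either control array. Both line 4 arrays lay below both controls at 33.3% of the probe sets tested, and the share for all 4 arrays was not computed. Its difference in line 4 was -0.31 ± 0.0918 (SE, limma adjusted p = 0.0484), and the call held in 4 of 12 alternatives.

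XTH20, the close relative of XTH18 and XTH19, read 38.9 and 44.7 units in line 4, 44.6 in line 1 and 41.1 and 44.8 in the control. The line 4 arrays overlapped with the control, and the difference of -0.04 had a 95% interval of -0.44 to 0.36 (limma adjusted p = 0.897). The array with conflicting labels was the lowest, at 27.9 units. EXGT-A3, now also named XTH27 and known from leaf vein development, read 641.5 and 589.2 units in line 4, 847.7 in line 1, 752.0 on the array with conflicting labels and 602.4 and 686.7 in the control. Its difference in line 4 was -0.07, with a 95% interval of -0.27 to 0.14 (limma adjusted p = 0.664).

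**Figure D4:**
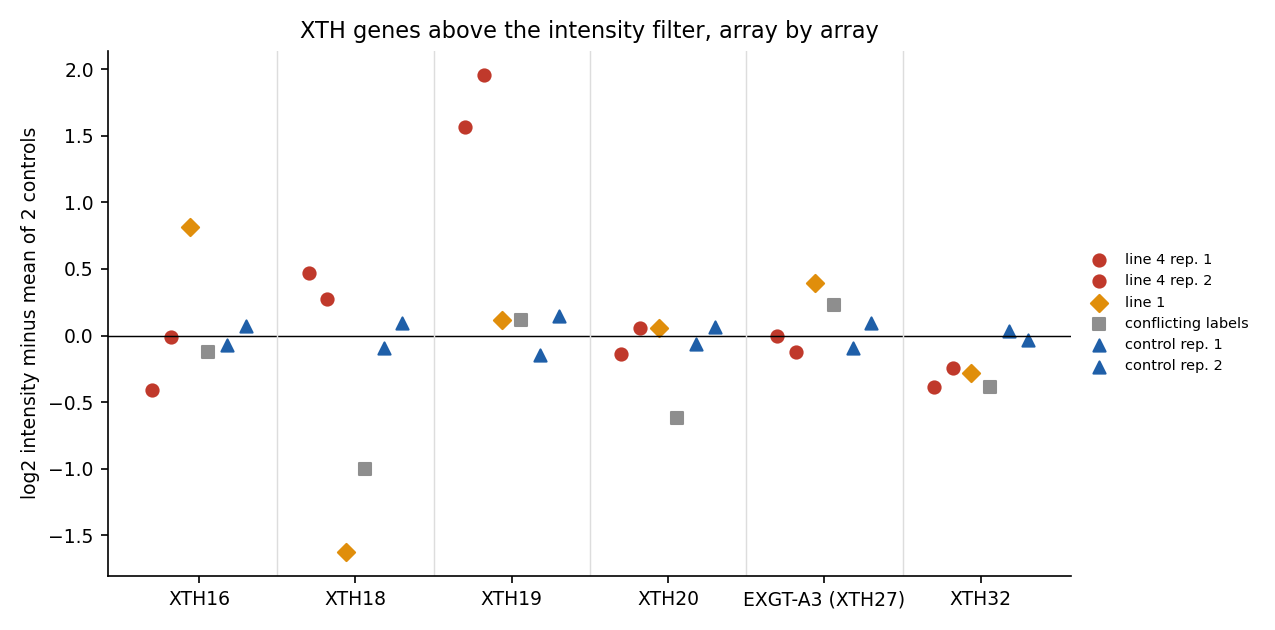
Log2 intensity minus the mean of both control arrays (vertical axis) for the 6 XTH genes that passed the filter, with line 4 as red circles, line 1 as an orange diamond, the array with conflicting labels as a grey square and the control as blue triangles. XTH19 lies highest in line 4 (1.56 and 1.96), XTH18 lies above the control in line 4 and below it on the line 1 array (-1.62) and the array with conflicting labels (-1.004), and XTH32 lies below the control on all 4 other arrays.

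The other 4 named members, XTH21, XTH26, XTH29 and XTH33, were below the filter. XTH21 and XTH26, the second known from root hairs, read between 0.6 and 3.7 units on all 6 arrays, and XTH29 between 7.6 and 15.2. XTH33, for a member of the family with a membrane anchor, read 18.9 and 4.5 units in line 4, 33.6 in line 1, 63.8 on the array with conflicting labels and 9.4 and 8.1 in the control. Its line 4 arrays lay on either side of the control, and the line 1 array and the array with conflicting labels stood above both. How many probe sets share that order was not computed. In a fit without the filter that took both of these as line 1, its difference from the control was 2.41 ± 0.709, which did not pass (SE, n = 2 against 2, limma adjusted p = 0.181).

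The genes that make the substrate of these enzymes were barely covered. Of 21 genes of xyloglucan synthesis and trimming, 5 were named and measured, all of the CSLC family, whose members build the glucan backbone. None passed in line 4, with a median of -0.10, where 15.5% of all probe sets tested passed, with a median of -0.03. For 5 genes a count of none is near that share. CSLC5 was at -0.35 (limma adjusted p = 0.0560), with 88.5 and 88.9 units in line 4, 118.2 in line 1 and 116.5 and 109.3 in the control. CSLC04, the best known synthase of the backbone, was at 0.14 (0.289), and CSLC6, ATCSLC08 and CSLC12 were at 0.03, -0.20 and -0.10. On the line 1 array all 5 lay within 0.19 of the control mean on the log2 scale. COB, for a wall protein needed for oriented cellulose deposition and the 1 named gene of 14 of cellulose synthesis, was at -0.17 in line 4 (0.159) and at 0.50 on the line 1 array.

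Expansins loosen walls without cutting chains. Of 25 such genes 14 were named and 12 measured, and in line 4 none of the 12 rose and 3 fell, with a median of -0.23. Over all probe sets tested 8.1% rose and 7.37% fell, with a median of -0.03. EXPB1 fell by 1.06 (limma adjusted p = 0.0132), EXPA8 by 0.49 (0.0139) and EXPA15 by 0.37 (0.0390). EXPB1 read 19.6 and 24.1 units in line 4, 37.1 in line 1 and 51.3 and 40.0 in the control. Its line 4 values were below the lowest mean signal that the filter kept (29.6 units). It thus entered the tested set through its control and line 1 values, and the count of falls is a description only. EXPA4 at -0.36 (0.0853), EXLB1 at 0.44 (0.103) and EXPB3 at -0.26 (0.263) did not pass. On the line 1 array EXLA2 read 109.3 units, against 42.3 and 61.6 in the control, and EXLA3 read 25.8 units, against 59.6 and 58.9 in the control.

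**Figure D5:**
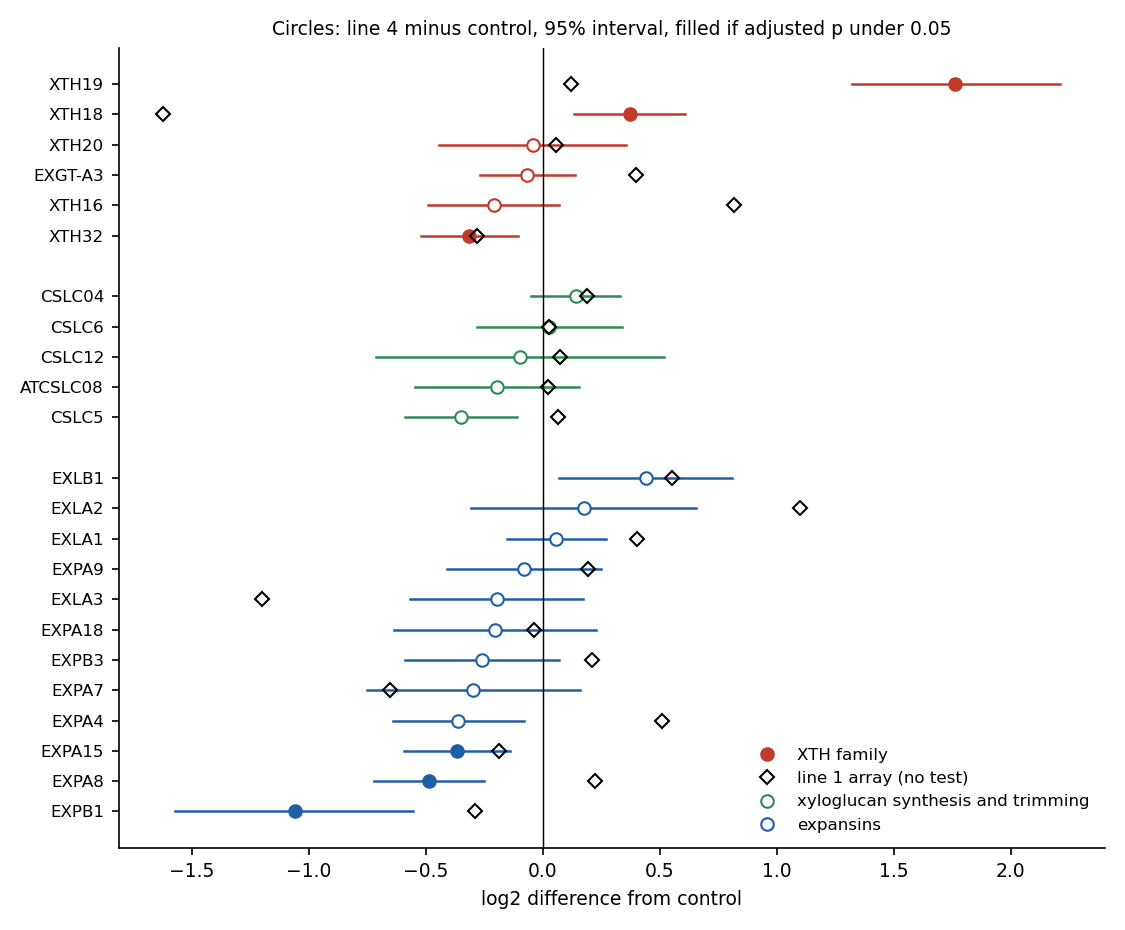
Log2 difference from the control (horizontal axis) for measured genes of the XTH family (red), xyloglucan synthesis (green) and expansins (blue). Circles are line 4 minus control with 95% intervals, filled where the limma adjusted p is under 0.05, and diamonds are the single line 1 array. XTH19 has the highest circle (1.76), EXPB1 the lowest (-1.06) and XTH18 the lowest diamond (-1.62). XTH19 passed the filter on dim signals through its line 4 values, and EXPB1 through its control and line 1 values.

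Auxin, brassinosteroids and NAC factors are known to act on XTH genes in Arabidopsis. Of 25 genes of this list 6 were named and 4 measured, and in line 4 1 rose and 2 fell, where 15.5% of all probe sets tested passed, 8.1% as higher and 7.37% as lower. GH3.3, for an auxin-conjugating enzyme, rose by 0.53 (limma adjusted p = 0.0286), its relative WES1 fell by 0.61 (0.00373), and LBD16, an auxin-induced regulator of lateral roots, fell by 0.79 (0.0366). IAA29, an auxin-induced repressor, was at -0.61 (0.143). LBD16 read 25.5 and 34.1 units in line 4, on either side of the lowest mean signal that the filter kept (29.6 units). Its control arrays read 45.1 and 57.5 and helped it pass that filter, so its fall is a description only.

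The genes whose values followed each XTH gene most closely were found by the distance between log2 differences from the control mean over all 6 arrays, among 7361 other probe sets of 1 gene. Nearest to XTH19, at a distance of 0.559 against a median of 2.63 for all, was AT5G42830, with 91.5 and 85.5 units in line 4, 30.9 in line 1 and 22.7 and 38.8 in the control. AT3G16530, for a legume-type lectin, followed at 0.602, then AT3G22240 at 0.661 and AT5G48540 at 0.673. Their Pearson r with XTH19 over 6 arrays lay between 0.948 and 0.967, as a description of arrays that share their groups.

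Nearest to XTH18 were AT1G05340 (distance 0.353), the sucrose phosphate synthase gene ATSPS4F (0.390) and the kinase genes AT4G25390 (0.516) and AT2G39110 (0.564), against a median of 2.14. ATSPS4F read 186.4 and 184.5 units in line 4, 50.3 in line 1, 83.7 on the array with conflicting labels and 171.4 and 147.6 in the control. Like XTH18 it was lowest on the line 1 array. Such likeness of a nearest gene, here and for XTH16 and XTH19, follows from its choice by distance over these same arrays. Nearest to XTH16 were AT3G49320 (0.180), AT5G51840 (0.195), AT2G18410 (0.306) and AT3G01960 (0.343), against a median of 1.06, and AT3G49320 read 62.3 units on the line 1 array against 32.1 and 34.2 in the control. The XTH genes themselves lay further from each other than the medians of all. The distance was 2.88 between the neighbours XTH18 and XTH19, against medians of 2.14 for XTH18 and 2.63 for XTH19. It was 2.76 between XTH16 and XTH18 and 2.89 between XTH16 and XTH19. Pearson r over 6 arrays was 0.592, -0.77 and -0.397 for these pairs in turn. Signal shared between the probe sets of XTH18 and XTH19 through similar sequence was not tested, as no probe sequences were used here; on the line 1 array XTH18 was at 0.324 and XTH19 at 1.09 of their control means.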

How the data were processed

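Deposited values of each probe set on 6 Affymetrix ATH1 arrays were intensities on a linear scale. Biotin-labelled cRNA was hybridised, per the labels' protocols, and how the authors summarised probes is not given here. Each array had a 2% trimmed mean of 100.01. Values of 0 (126) were raised to 0.1 and log2 was taken without further scaling. Of 22810 probe sets 64 controls were left out, then the dimmest 40% (mean log2 intensity of the 5 arrays with a group), which kept 13647. No detection calls were used.

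limma 3.58.1 (R 4.3.3) was fitted to all probe sets kept (lmFit, then eBayes with trend), with Benjamini-Hochberg adjustment and a threshold of 0.05. Line 4 against control used 5 arrays in 3 groups, and both lines against control the same arrays in 2 groups. The lone line 1 array adds no estimate of spread, so line 1 alone was described without a test. A limma contrast of that array, which takes it to vary as the other groups do, was run as an alternative only. The steps were tested on simulated data. The series' design text states 2 biological replicates without saying how pools were grown, so the p-values reflect only how these pools vary. The number of arrays limits the precision.

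Names came from GEO's platform annotation, updated through the TAIR10.1 gene table. Of 22746, 13513 had 1 gene, 503 several and 8730 none there, and an unnamed probe set may still have a gene. The 3 genes and all gene lists were chosen with earlier results of these data known. Named were every XTH gene with a probe set of its own and up to 6 measured genes of each other list by smallest p in line 4. The 4 nearest patterns of each of the 3 genes were also named. EXLA1, EXLA2, EXLA3 and the remaining CSLC genes were named after their values were seen. Alternatives changed the filter, pseudocount, scaling, variance trend, arrays left out, the place of the array with conflicting labels and a replicate block.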

Additional observations from a re-analysis of the deposited data

Results flagged for a closer look

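XTH18 and XTH19 differed between the lines when the array with conflicting labels was taken as line 1. Line 4 was then higher by 1.69 and by 1.65 on the log2 scale (limma adjusted p = 0.00703 and 0.00614, n = 2 against 2). The comparison was chosen after the values were seen, and 7.89% of all probe sets passed in it, 5.26% as higher in line 4. It covered only probe sets kept by the filter, which XTH19 passed through its line 4 values. XTH16 lay below the control mean on both line 4 arrays (-0.406 and -0.013) and 0.82 above it on the line 1 array. EXGT-A3 lay at -0.004 and -0.126 on the line 4 arrays and 0.40 above the control mean on the line 1 array. In both genes the line 4 arrays overlapped with the control arrays. The share of all probe sets with this order was not computed. For these 2 genes the difference between the lines was not tested with the labelled arrays alone, and with the array of conflicting labels as line 1 neither passed (limma adjusted p = 0.321 and 0.130). XTH33 read 63.8 units on the array with conflicting labels, which enters no comparison as reported, against 9.4 and 8.1 in the control.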

How the results depend on the processing

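In line 4 against control XTH19 kept its direction and call in all 12 alternatives, and XTH16 kept its direction without passing in all 12. All alternatives except the fit with no filter used the filter that XTH19 passed through its line 4 values. The fit without the line 1 array, with 2116 calls, nearly repeats the reported one for every gene, as that array adds no estimate of spread. XTH18 kept its direction but did not pass with no filter (0.37), quantile normalization (0.33), no variance trend (0.37), or the array with conflicting labels as control (0.71) or as line 1 (0.37). Leaving out 1 array gave 0.28 to 0.47 for XTH18. The count of 2111 probe sets passing was 1256 with no filter, 1116 with no variance trend, 94 (85 higher, 9 lower) with that array as control and 203 (167 higher, 36 lower) with it as line 1, and 1028 to 2116 with 1 array left out, lowest without line 4 replicate 1 and at 1064 without line 4 replicate 2. XTH20 turned to 0.17 with that array as control and ranged from -0.14 to 0.06 with 1 array left out, and EXGT-A3 from -0.16 to 0.03.

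For both lines against control, leaving out 1 array gave -0.21 to 0.40 for XTH16, -0.67 to 0.37 for XTH18, 0.84 to 1.76 for XTH19, -0.07 to 0.06 for XTH20, -0.07 to 0.20 for EXGT-A3 and 0 to 2116 calls, 2116 being without line 1. With the mean of both lines in 3 groups, in which the lone line 1 array has the same weight as both line 4 arrays, XTH18 stood at -0.63, XTH19 at 0.94 and XTH20 at 0.01, with 2095 calls. In that fit with 3 groups XTH18 and XTH19 passed, unlike in the reported fit, and XTH16 did not. Its spread came from the line 4 and control arrays only, so these calls carry no replicate check of line 1. Counting the array of conflicting labels among the controls, XTH18 stood at 0.04 and XTH20 at 0.20, with 1 call. A pseudocount gave 4 calls, and quantile normalization 0.01 for XTH20. For line 1, XTH18 was at -1.41 with a pseudocount, -1.29 with that array as control and -1.31 with it as line 1, where XTH16 stood at 0.35. A limma contrast of the lone line 1 array, taken to vary as the other groups do, gave adjusted p of 3.6e-05 for XTH18, 0.00653 for XTH16 and 0.782 for XTH19, with 2244 calls. The cause was not tested.

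With the replicate number of the title codes as a block, line 4 minus control stayed at 1.76 for XTH19 and 0.37 for XTH18 (limma adjusted p = 0.0111), with 2609 calls. In both lines XTH19 stood at 1.24 and XTH18 at -0.20 under the block. Equal numbers did not mark arrays that deviated together (r = -0.075 across 13647 probe sets), so the numbers were not taken as pairs.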

Other observations

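Of the 4 measured genes of the auxin list, IAA29, GH3.3 and WES1 read higher on the array with conflicting labels than on the other 5 arrays. LBD16 read 51.7 units there, between 45.1 and 57.5 in the control. The share of all probe sets that read highest there was not computed. That array correlated with the others at r from 0.872 to 0.931, against 0.983 between the control arrays and 0.99 between the line 4 arrays. IAA29 read 425.2 units there, against 39.7 and 25.4 in the control, GH3.3 322.4 against 65.5 and 70.8, and WES1 626.0 against 199.7 and 201.2. The expansin genes EXPA8 and EXPA4 read 678.7 and 248.7 units there, against 220.3 and 198.4 and against 100.3 and 94.7 in the control. XTH19, described as responsive to auxin in Arabidopsis roots, read 30.2 on that array, within the range of the control. EXLA1 read 289.0 units on that array, against 724.0 and 857.2 in the control, and EXLA3 16.8 against 59.6 and 58.9. The other measured expansin genes lay nearer to the control mean there. On the line 1 array IAA29 read 55.1, GH3.3 66.8, WES1 172.2 and EXPA8 244.3 units.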
